A study of Mus musculus with 30 samples.

Results

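The mRNAs of 10 genes of the B lineage were followed in mouse liver, namely Ighm, Igkc, Jchain, Igha, Ighg2b, Ighg2c, Iglc2, Cd79a, Cd79b and Mzb1. They are 10 of 54429 genes in a time course of 18 libraries and 10 of 55471 genes in a second cohort of 12 libraries. They were chosen by name, and the choice was made on measured values of these same libraries, so their levels by age and genotype are given as a description, with no test. The time course came from livers of male C57BL/6J mice of 2, 6 and 12 months killed at Zeitgeber time (ZT) 1, 5, 9, 13, 17 and 21, where ZT counts hours after lights on, with 1 library for each age and time. The genotype cohort held WT and Egr-1 KO mice of 2, 6 and 12 months at the times of highest (H) and lowest (L) Egr-1 protein, which were set for each age on its own, again with 1 library for each combination. The KO was made with Cre under the albumin promoter, which acts in hepatocytes, on floxed Egr-1 in a strain 129 line backcrossed to C57BL/6J, and littermates served as the WT animals. The study's legends name several animals per group, but how animals map onto libraries, and whether a library pooled them, is not given in the sources used here.

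An antibody is built from a pair of heavy and a pair of light chains. Each B cell joins 1 variable (V) segment to shorter segments and expresses the result with a constant gene: Ighm for IgM, Igha for IgA, Ighg2b and Ighg2c for IgG subclasses, and Igkc or an Iglc gene for the kappa or lambda light chain. Resting B cells hold the antibody in the membrane with Cd79a and Cd79b, the signalling subunits of the B-cell receptor, while antibody-secreting cells make far more immunoglobulin mRNA per cell and use Jchain, which links IgM and IgA into polymers, and Mzb1, a chaperone of the endoplasmic reticulum. Liver holds few B cells, lying in the sinusoids and portal tracts. In bulk RNA, more cells of this lineage and more RNA per cell cannot be told apart.

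The members lie in GRCm38 at chr12:113418558-113422730 (Ighm), chr12:113254830-113260236 (Igha), chr12:113302965-113307933 (Ighg2b), chr12:113285325-113288932 (Ighg2c), chr6:70726435-70726966 (Igkc), chr16:19198396-19200351 (Iglc2), chr5:88519809-88527891 (Jchain), chr7:24897381-24902197 (Cd79a) and chr11:106311341-106314762 (Cd79b). Igkc and Cd79a are on the plus strand and the others on the minus strand; Mzb1 is given further on. Several have close copies among which a read counter can split reads. The lambda constant exons of Iglc2 and its copy Iglc3 are shown because they bear on how the Iglc2 count is read. Of 50-base windows in Iglc2 transcripts, 7.65% also occurred in Iglc3, and of those in Ighg2c 5.49% occurred in Ighg2b. Below, 100 bases of each lambda exon are printed in coding direction from GENCODE transcripts, with the 6 bases of Iglc3 that differ from Iglc2 in capitals (chr16:19198753-19198852 and chr16:19065582-19065681, minus strand).

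Iglc2: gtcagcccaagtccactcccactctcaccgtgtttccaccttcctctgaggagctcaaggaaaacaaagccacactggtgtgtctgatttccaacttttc
Iglc3: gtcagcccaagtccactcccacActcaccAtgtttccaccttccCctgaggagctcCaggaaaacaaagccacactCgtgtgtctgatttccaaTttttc

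The second pair shows the start of the second exon of the kappa V segments Igkv3-2 and Igkv3-5. Together they took a large share of the V reads in the ZT9 library at 12 months (given further on). They lie at chr6:70698758-70698907 and chr6:70663586-70663735 on the plus strand, and the capitals mark the 7 bases of Igkv3-5 that differ from Igkv3-2 in the 150 printed. Over the whole exon 29 of 310 bases differed.

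Igkv3-2: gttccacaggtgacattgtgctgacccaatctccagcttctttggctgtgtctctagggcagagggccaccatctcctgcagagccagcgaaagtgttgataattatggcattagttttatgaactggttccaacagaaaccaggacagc
Igkv3-5: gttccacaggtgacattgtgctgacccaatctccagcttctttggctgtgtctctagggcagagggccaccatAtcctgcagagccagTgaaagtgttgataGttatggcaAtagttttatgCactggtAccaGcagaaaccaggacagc

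For 2 of the 10 members the RefSeq promoter table (GRCm38.p6) had an entry that could be printed, the J chain gene (chr5:88527898-88528147, minus strand) and Cd79a (chr7:24897247-24897496, plus strand). Both are shown as the 250 bases before the RefSeq transcription start, since in the time course the J chain gene differed by age far more than Cd79a did, which was not so in the genotype cohort. The RefSeq start of Cd79a lies downstream of the GENCODE start given above, so the end of its printed run is inside the GENCODE gene. They were searched on both strands for the octamer ATGCAAAT of immunoglobulin promoters, for the EGR motif GCGNGGGCG and for the E-box form CAGGTG. No other form of the E-box was searched. The octamer is in 1.60% of 32851 promoters in a window of this length, the EGR motif in 4.70% and CAGGTG in 17.2%. A single match was found, the E-box of Cd79a at base 97 of the printed run, which is in capitals. A match describes letters and is not evidence of binding.

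Jchain: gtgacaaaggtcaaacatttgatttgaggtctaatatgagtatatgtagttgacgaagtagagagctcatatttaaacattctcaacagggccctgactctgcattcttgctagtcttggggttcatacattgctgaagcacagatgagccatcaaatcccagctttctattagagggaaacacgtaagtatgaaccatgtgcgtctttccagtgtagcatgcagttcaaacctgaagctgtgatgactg
Cd79a: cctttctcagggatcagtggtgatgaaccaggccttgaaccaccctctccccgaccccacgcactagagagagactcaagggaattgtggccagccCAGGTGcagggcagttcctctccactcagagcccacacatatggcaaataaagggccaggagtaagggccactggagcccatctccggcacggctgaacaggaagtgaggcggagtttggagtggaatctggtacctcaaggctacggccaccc

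Library totals ran from 13375377 to 16557378 counted reads in the time course and from 13747706 to 21748956 in the genotype cohort. Levels are given as CPM, counts relative to the library total after TMM scaling (edgeR's trimmed mean of M values). Intervals on counts and shares cover counting error only. Hepatocyte markers summed to between 39926 and 129466 CPM in all libraries. The ZT9 library at 12 months stood apart from the other 5 of its age in 7 of the members, and values without it are given beside the results it moved. In the genotype cohort, Egr1 mRNA was 13.1 and 5.05 times lower in the KO than in the WT library at 6 months (H and L) and 36.0 times lower at 12 months L. At 2 months H it was 1.97 CPM in KO and 2.55 CPM in WT, while at 12 months H it was 6.11 CPM in the library labelled KO and 5.85 CPM in the library labelled WT, and at 2 months L it was 7.37 CPM in the library labelled KO and 1.45 CPM in the library labelled WT. Egr1 thus went against the labels of the 2-month L pair and did not separate those of the 12-month H pair, and "WT" and "KO" below mean the labels.

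In the time course, Ighm, Igkc and the J chain gene overlapped between 2 and 6 months and were higher in every 12-month library. Ighm, the IgM heavy chain, ran from 6.49 to 13.4 CPM at 2 months (median 11.3), from 6.07 to 11.2 CPM at 6 months (median 8.13) and from 34.9 to 279.9 CPM at 12 months (median 52.2). Igkc, the kappa light chain, ran from 2.46 to 7.46 CPM at 2 months (median 4.04), from 5.13 to 6.58 CPM at 6 months (median 5.28) and from 14.8 to 170.1 CPM at 12 months (median 19.2). Jchain ran from 1.35 to 2.25 CPM at 2 months (median 1.51), from 1.64 to 2.83 CPM at 6 months (median 2.23) and from 4.68 to 66.8 CPM at 12 months (median 5.82). For none of these 3 did the 12-month libraries overlap with the younger ones, whereas the 2-month and 6-month ranges overlapped. The fitted log2 difference between 12 and 2 months was 2.73 ± 0.35 for Ighm, 2.82 ± 0.43 for Igkc and 2.67 ± 0.46 for Jchain (edgeR, ± SE, 6 libraries an age). Without the ZT9 library it was 2.26 ± 0.17, 2.16 ± 0.21 and 1.88 ± 0.21.

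**Figure D1:**
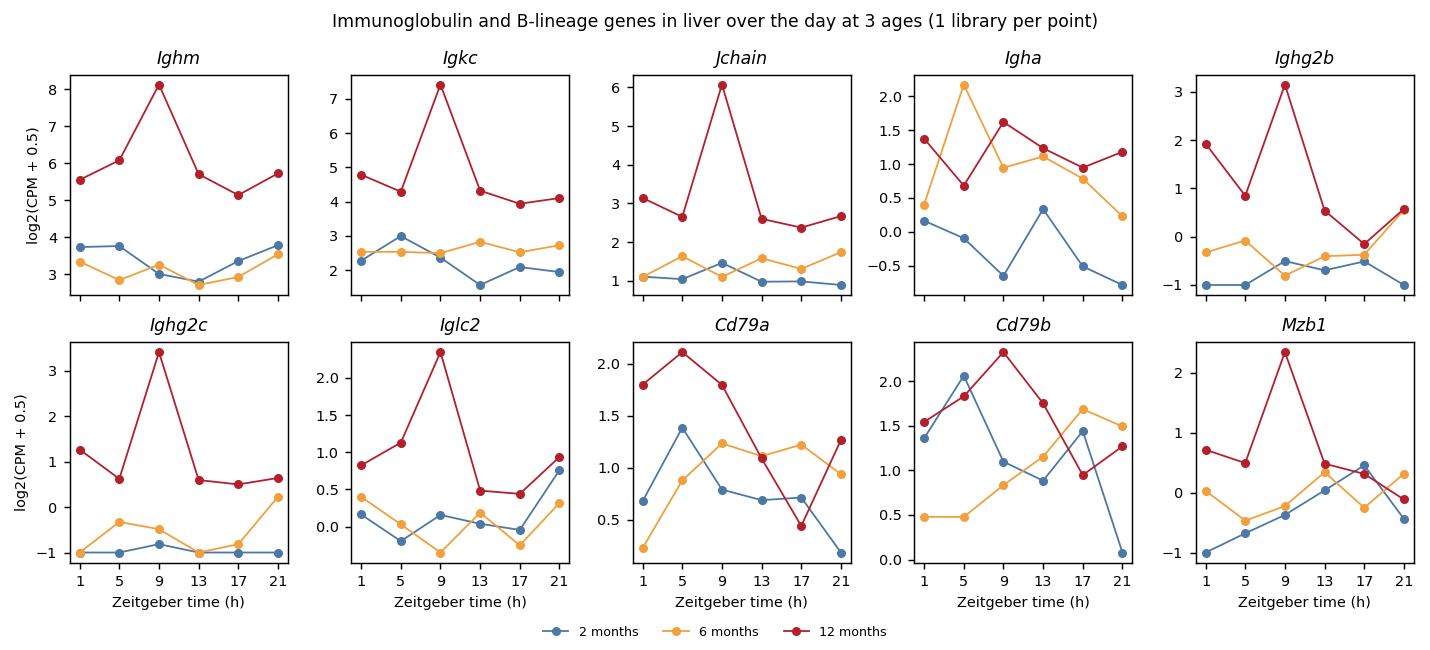
Level of each member over the day in the time course, with Zeitgeber time in hours on the x axis and log2(CPM + 0.5) on the y axis, whose range differs between panels; each point is 1 library and colours give age. Ighm, Igkc and Jchain at 12 months lie above all points of 2 and 6 months, the ZT9 library at 12 months peaks in most panels, and Cd79a and Cd79b overlap between ages.

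The IgG genes were nearly unread at 2 months in the time course, unlike in the genotype cohort (given further on). Ighg2c had 1 read in all 6 libraries of 2 months together and between 15 and 126 reads in each library of 12 months, 221 in all. Pooled over libraries this is 213 times the CPM of 2 months, with a 95% exact interval from counting error of 37.9 to 8467, and 106 times without the ZT9 library (18.5 to 4225). Ighg2b had 0 to 3 reads per library at 2 months, 1 to 13 at 6 months and 7 to 104 at 12 months. Its 12-month libraries were all above those of 2 months, but they overlapped with those of 6 months, where the ZT21 library had 0.969 CPM. The fitted log2 difference for Ighg2b was 4.40 ± 0.78 between 12 and 2 months and 3.56 ± 0.77 without the ZT9 library.

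Igha, the IgA heavy chain, had another course. It ran from 0.0795 to 0.760 CPM at 2 months, from 0.671 to 4.01 CPM at 6 months and from 1.10 to 2.58 CPM at 12 months. The higher level was thus present at 6 months already, and the 6-month library at ZT5 was the highest of all 18. The log2 difference was 2.04 ± 0.46 between 6 and 2 months, 2.32 ± 0.46 between 12 and 2 months and 0.28 ± 0.39 between 12 and 6 months. Without the ZT5 library the first of these was 1.55.

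Iglc2, a lambda light chain, had medians of 0.570, 0.580 and 1.34 CPM at 2, 6 and 12 months. All its 12-month libraries (0.856 to 4.59 CPM) were above those of 6 months (0.285 to 0.819 CPM), but the ZT21 library at 2 months reached 1.19 CPM. Mzb1 had 0 to 13 reads per library at 2 months, 3 to 12 at 6 months and 6 to 57 at 12 months. The log2 difference of Iglc2 between 12 and 2 months was 1.39 ± 0.38, and 0.90 ± 0.31 without the ZT9 library. For Mzb1 it was 1.90 ± 0.60, and 1.27 ± 0.56 without the ZT9 library. Mzb1 (chr18:35647267-35649367, minus strand) overlaps SPATA24 on the same strand in GENCODE M21, and SPATA24 is a row of the genotype table but not of the time course table, so Mzb1 counts of the cohorts are not set against each other.

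The receptor subunits differed least of the members between 12 and 2 months in the time course. Cd79a ran from 0.636 to 2.11 CPM at 2 months, from 0.670 to 1.85 CPM at 6 months and from 0.856 to 3.83 CPM at 12 months. Cd79b ran from 0.556 to 3.67 CPM at 2 months, from 0.892 to 2.72 CPM at 6 months and from 1.43 to 4.51 CPM at 12 months. All 3 ages overlapped for both genes. Their log2 differences between 12 and 2 months were 0.92 ± 0.31 for Cd79a and 0.50 ± 0.38 for Cd79b. The read ratio of Ighm to Cd79a had medians of 7.40, 4.96 and 29.7 at 2, 6 and 12 months. That of Jchain to Cd79a had medians of 1.41, 1.72 and 3.24. The ranges at 2 and 12 months overlapped, at 5.84 to 21 and 15.6 to 94 for Ighm. For Jchain they were 0.735 to 2.125 and 1.51 to 22.4. In the genotype cohort the medians at 2, 6 and 12 months were 4.96, 19.97 and 22.7 for Ighm to Cd79a. Those of Jchain to Cd79a there were 1.65, 2.04 and 1.96.

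Counted over all members, 8 of 10 passed an adjusted p of 0.05 upward between 12 and 2 months, where 6.47% of 13948 genes tested passed upward and 5.19% downward. Between 12 and 6 months 6 of 10 passed upward, beside 8.57% of genes upward and 7.58% downward. Between 6 and 2 months Igha alone passed, upward, beside 6.83% upward and 6.73% downward. Because the members were chosen on these libraries, nothing is read from these counts. Without the ZT9 library they were 6, 5 and 1. The members' median log2 difference was 2.50 between 12 and 2 months against 0.00 over all genes tested, and 0.50 between 6 and 2 months against 0.01. In 6 members all 12-month libraries exceeded all 2-month libraries, which 1.82% of 18931 genes with at least 10 reads did, and in 5 all exceeded those of 6 months, as in 1.72% of genes. No member separated 6 from 2 months upward, against 1.83% of genes.

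Per base of exon, which allows genes to be compared, Igkc and Ighm were the most abundant members at every age of the time course. At 12 months the median FPKM (CPM divided by exon length in kilobases) was 36.1 for Igkc and 27.7 for Ighm, then 2.31 for Jchain, 2.19 for Iglc2, 1.84 for Cd79b and 1.68 for Cd79a. Ighg2c, Mzb1, Igha and Ighg2b followed at 0.791, 0.744, 0.678 and 0.427. At 2 months Igkc (7.60) and Ighm (6.00) led as well, but Cd79b at 1.29 and Cd79a at 0.772 stood above Jchain at 0.602. Kappa made up a median of 72.0, 78.5 and 88.5% of kappa plus lambda reads per base at the 3 ages. The ranges were 59.7 to 77.1%, 74.5 to 84.9% and 81.0 to 93.3%, so that 12 and 2 months did not overlap and 6 months overlapped with both. In the genotype cohort kappa held 79.4 to 90.6% at 2 months and 87.5 to 92.5% at 12 months, so these ages overlapped there.

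Among the heavy-chain constant genes, per base, the median share of Ighm at 2, 6 and 12 months was 86.1, 73.4 and 90.9%. The IgG genes Ighg1, Ighg2b, Ighg2c and Ighg3 together held 1.29, 6.23 and 5.00%. Igha held 1.64, 8.48 and 2.24%, and Ighd, which mature naive B cells express with Ighm, held 7.83, 10.9 and 1.94%. The 12-month shares of Ighd (0.980 to 3.23%) were lower than all 6-month shares but 1 and than all 2-month shares but 1. In the genotype cohort Igha held 16.1 to 56.5% at 2 months and 2.41 to 3.19% at 12 months, and Ighm 28.9 to 78.1% and 73.7 to 88.8%.

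**Figure D2:**
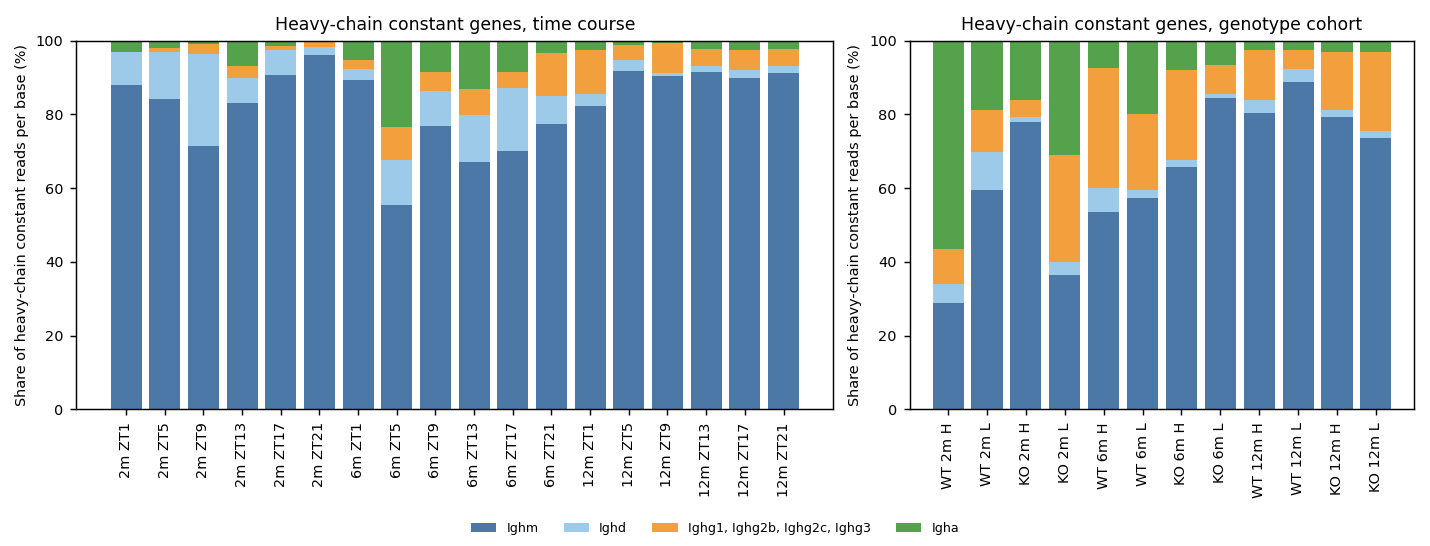
Share of each heavy-chain constant gene in the reads per base of exon over all heavy-chain constant genes, in percent on the y axis, with 1 bar per library on the x axis (time course on the left, genotype cohort on the right). Ighm holds 82.3% or more in each 12-month library of the time course, and the Igha share is widest in the WT library of 2 months H at 56.5%.

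The ZT9 library at 12 months had 3478 reads of Ighm, 2113 of Igkc and 830 of Jchain, against 611 to 1038, 236 to 426 and 82 to 131 in the other 5 libraries of its age. Ighg2c, Ighg2b, Iglc2 and Mzb1 were also highest there, with 126, 104, 57 and 57 reads. Igha with 32 reads, Cd79a with 37 and Cd79b with 56 were near the other libraries (17 to 33, 15 to 59 and 25 to 51). Its ratio of Jchain to Cd79a reads was 22.4, beside 1.51 to 5.47 in the others. The summed red cell markers were 4911 CPM there against 1009 to 2173 CPM in the others of 12 months and up to 4558 CPM at 6 months. The 6 markers of lymph node or spleen summed to 6.60 CPM (3.76 to 10.9 in the others), with Ccl21a, Ccl19, Madcam1 and Glycam1 at 0, as in 4 of the other 5. Their part in the level of the members was not tested.

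V-segment reads moved with the constant genes. Summed over 346 listed segments they were 2.14 to 5.10 CPM at 2 months, 3.13 to 4.09 CPM at 6 months and 8.22 to 93.9 CPM at 12 months, or up to 17.6 CPM without the ZT9 library. The number of segments with at least 3 reads had medians of 4.5, 4.5 and 26.5 at 2, 6 and 12 months, and of 4.5, 4.5 and 22 after reads were thinned to the smallest library total. That thinning did not make V reads equal, whose medians were 47.5, 50 and 202. The number of segments is thus no measure of V diversity apart from the V reads. In the ZT9 library Igkv3-2, shown above, held 392 of 1166 V reads, a share of 33.6% (95% Wilson interval 31.0 to 36.4%). Igkv3-2 was also the leading segment in 3 other 12-month libraries, with 46 reads at ZT1 (16.5%), 23 at ZT5 (11.3%) and 18 at ZT13 (8.96%), and it had 2 reads at ZT17 and 15 at ZT21. At 2 and 6 months it had 0 to 3 reads per library. Igkv3-5 had 95 reads in the ZT9 library, 0 to 7 in the other 12-month libraries and 0 in all libraries of 2 and 6 months. In their second exon Igkv3-5 differed from Igkv3-2 at 29 of 310 bases, and another segment, Igkv3-4, at 27. Whether the counting divided reads among them was not tested.

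Only 2 V segments had enough reads across libraries to enter the fit, and they did so through their 12-month libraries. Since the filter on low counts thus favoured a higher value at 12 months, their differences are given as a description, with no test. The third of the leading segments by mean CPM, Igkv3-5, did not pass the filter on low counts. Igkv3-2 differed by a log2 of 7.91 ± 0.86 from 2 months (edgeR) and the lambda segment Iglv1, with 1 to 4 reads per library at 2 months and 14 to 58 at 12 months, by 3.05 ± 0.42. Without the ZT9 library the values were 5.79 ± 0.67 and 2.62 ± 0.39. V segments are part of the same mRNAs as the members, so they are not an independent measure of the age difference.

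**Figure D3:**
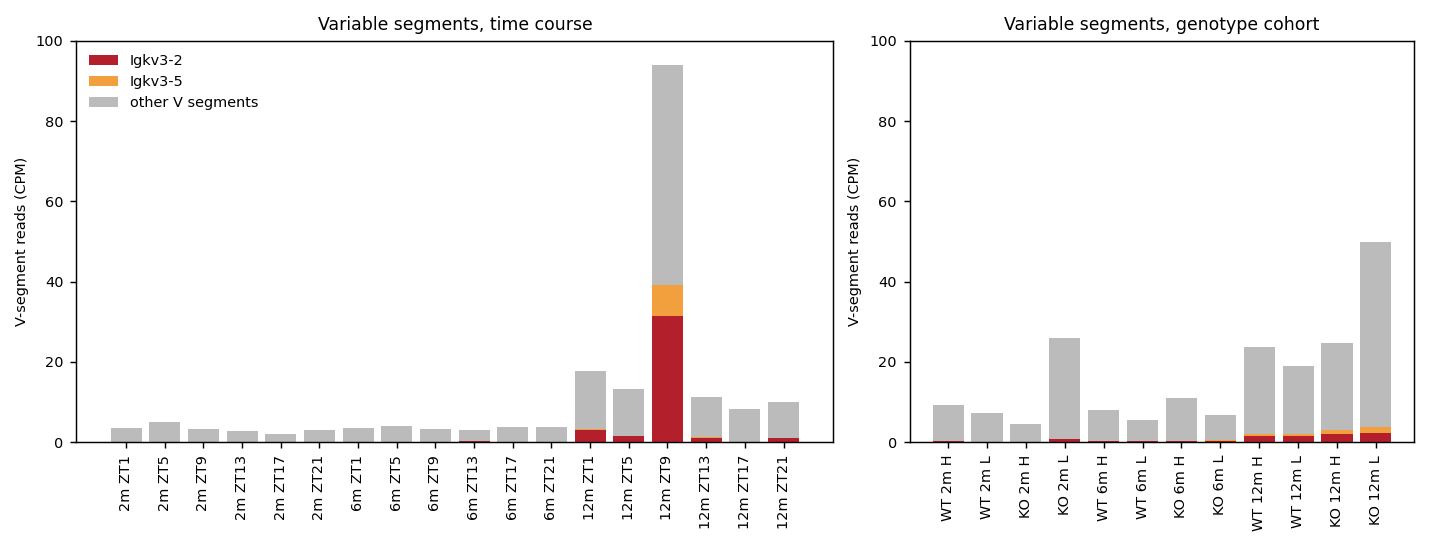
Reads of all immunoglobulin V segments in CPM on the y axis for each library on the x axis, time course on the left and genotype cohort on the right, with Igkv3-2 and Igkv3-5 marked within each bar. The ZT9 library at 12 months reaches 93.9 CPM, of which Igkv3-2 is the largest single segment, and the genotype cohort reaches 49.8 CPM in the KO library of 12 months L.

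B-lineage genes outside the 10 members were read from a list of 57, of which 42 could be tested in the time course. Between 12 and 2 months the median log2 difference of the 42 was 0.15. It was 0.55 for the 23 B-cell genes tested, 18 of them above 0, and −0.11 for the 13 genes of antibody-secreting cells. Of the 42, 5 rose and 4 fell, beside 6.47% of all genes tested upward and 5.19% downward. Among these rises, Ighg1 had 0 to 2 reads per library at 2 months and 8 to 67 at 12 months, and Eaf2, a gene of antibody-secreting cells, 2 to 6 and 3 to 20. Both passed the filter on low counts through their 12-month libraries, which favoured an upward call, so their log2 differences of 4.36 ± 0.68 and 1.41 ± 0.44 are given without a p. Iglc1, another lambda constant gene, rose by 1.85 ± 0.50 (adjusted p = 0.0251). Of 23 tested B-cell genes 2 rose, among them Cd37, a membrane protein of mature B cells, by 0.59 ± 0.16 (adjusted p = 0.0287) and the transcription factor Bach2 fell by 0.87 ± 0.23 (adjusted p = 0.0242), while 20 did not pass. Of 13 genes of antibody-secreting cells 3 fell, Fkbp11 (−0.84 ± 0.17, adjusted p = 0.00437), Creld2 (−1.28 ± 0.36, adjusted p = 0.0297) and Edem2 (−0.41 ± 0.10, adjusted p = 0.0184). Those 3 serve protein folding and disposal in the endoplasmic reticulum and are expressed by hepatocytes too. Without the ZT9 library Bach2, Fkbp11 and Edem2 still passed. Cd37 (0.60 ± 0.18, adjusted p = 0.0522), Creld2 (−1.26 ± 0.40, adjusted p = 0.0679) and Iglc1 (1.42 ± 0.50, adjusted p = 0.0985) did not, and the log2 differences of Ighg1 and Eaf2 were 3.58 ± 0.63 and 1.36 ± 0.49. Ms4a1, a standard surface marker of B cells, had an adjusted p of 0.142 with all libraries (edgeR).

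Between 12 and 6 months 4 of the 42 rose and 5 fell, beside 8.57% of all genes tested upward and 7.58% downward. The rises were those of Ighg1, Iglc1, Cd22 and Eaf2. At 6 months Ighg1 had 1 to 3 reads per library and Eaf2 1 to 7, so the filter on low counts again favoured an upward call for both. Their log2 differences of 3.68 ± 0.63 and 1.60 ± 0.45 are given without a p, and nothing is read from their part in the count. Without the ZT9 library these were 2.89 ± 0.59 and 1.56 ± 0.50. Iglc1 (1.27 ± 0.51, adjusted p = 0.129) and Cd22 (1.13 ± 0.36, adjusted p = 0.0547) did not pass without it. Between 6 and 2 months 2 rose and 1 fell, beside 6.83% of all genes tested upward and 6.73% downward. The B-cell marker list of 7 genes, 2 of them members, summed to 5.09 to 9.58 CPM at 2 months, 4.92 to 8.83 CPM at 6 months and 6.56 to 18.3 CPM at 12 months. The T-cell list summed to 6.43 to 8.82, 3.35 to 9.92 and 6.50 to 8.05 CPM. The neutrophil list was high at 6 months, at 22 to 139 CPM. It was 2.01 to 5.73 CPM at 2 months and 4.10 to 11.04 CPM at 12 months, a course unlike that of the members. Saa2, which is not on the B-lineage list, ran from 3081 to 16953 CPM at 6 months. It was 16.997 to 39.3 CPM at 2 months and 5.78 to 540 CPM at 12 months. In the genotype cohort at 6 months Saa2 was 19.8 to 210 CPM. What part these differences had in the time course contrasts with 6 months was not tested.

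The genotype cohort gave a second set of libraries of the same ages, in which the time of day differed between 2 and 12 months. Ighm was 8.27 to 18.6 CPM at 2 months, 12.7 to 43.5 CPM at 6 months and 81.1 to 145.9 CPM at 12 months, with no overlap between 12 months and the younger ages. Igkc was 3.71 to 26.5, 8.49 to 15.2 and 24.7 to 71.8 CPM, so its 2-month and 12-month libraries overlapped. The log2 differences between 12 and 2 months were 3.04 ± 0.16 for Ighm and 1.85 ± 0.49 for Igkc (4 libraries an age). For Jchain the value was 0.87 ± 0.60, for Ighg2b 2.15 ± 0.70, for Ighg2c 2.06 ± 0.78 and for Iglc2 0.93 ± 0.48. At 2 months Ighg2b was 0.722 to 0.970 CPM in 3 libraries and 7.68 CPM in the KO library of L, and Ighg2c 0.192 to 1.28 CPM and 5.21 CPM there. Leaving out the 2-month H pair lowered Ighg2b to 1.06 and Ighg2c to 1.16, and leaving out the 2-month L pair raised them to 3.85 and 3.62.

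Igha went the other way in this cohort. It was 22.9 CPM in the WT library of 2 months H and 21.7 CPM in the KO library of 2 months L, 4.92 and 5.44 CPM in the other 2 libraries of 2 months, and 3.27 to 8.21 CPM in the 8 libraries of 6 and 12 months. The log2 difference between 12 and 2 months was −1.33 ± 0.51 here, against 2.32 ± 0.46 in the time course. The cohorts were counted in separate tables and differed in the times of day compared, and this difference was not tested. The same pair of 2-month libraries was also high in Jchain, with 12.97 and 8.26 CPM against 2.35 and 1.299 CPM in the other 2 of that age.

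Cd79a and Cd79b were higher in all 12-month libraries of this cohort than in all younger ones. Cd79a was 1.54 to 3.75, 1.12 to 2.17 and 4.42 to 5.23 CPM at 2, 6 and 12 months, and Cd79b 1.15 to 2.60, 1.54 to 2.13 and 3.90 to 4.74 CPM. Their log2 differences between 12 and 2 months were 1.01 ± 0.28 and 1.17 ± 0.25. In all libraries 3 members, Ighm, Cd79a and Cd79b, separated 12 from 2 months, against 7.06% of 18894 genes with at least 10 reads. Of the 9 members tested 4 passed upward between 12 and 2 months (Ighm, Igkc, Cd79a and Cd79b), beside 5.15% of 14389 genes upward and 6.52% downward, and nothing is read from that count. Mzb1, with 0 to 8 reads per library, did not pass the filter on low counts. Leaving out the 2-month H pair, the 12-month H pair or the 12-month L pair left 1 member called, and the log2 difference of Cd79a ran from 0.58 to 1.503 over the pairs left out.

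**Figure D4:**
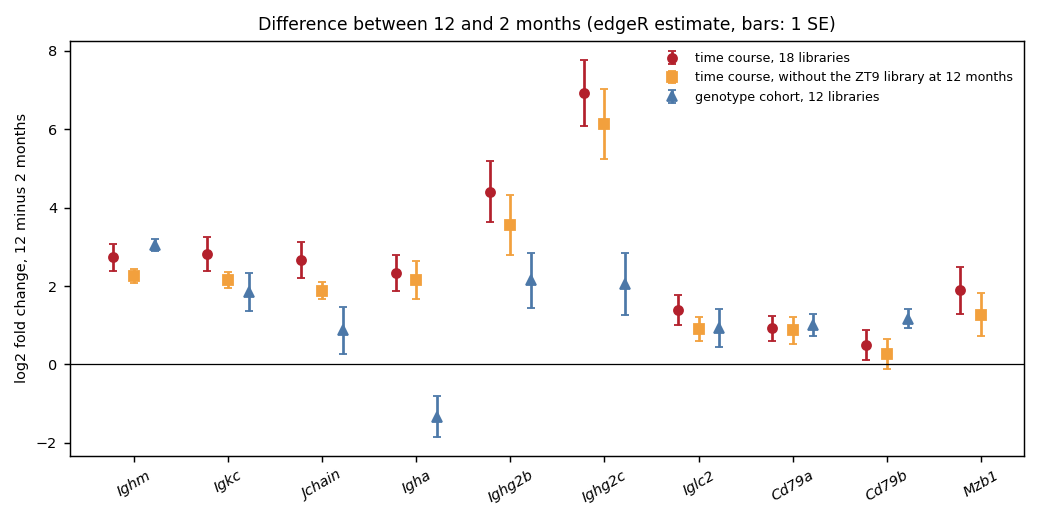
Log2 difference between 12 and 2 months for each member on the x axis, estimated by edgeR in the time course with all 18 libraries, in the time course without the ZT9 library at 12 months, and in the genotype cohort of 12 libraries; bars are 1 SE. All estimates lie above 0 except that of Igha in the genotype cohort at −1.33, and Mzb1 was not estimated there. The Ighg2c and Ighg2b estimates rest on few reads at 2 months in the time course.

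Of 46 tested genes of the list 7 rose and 5 fell between 12 and 2 months, beside 5.15% of all genes tested upward and 6.52% downward. The median log2 difference of the 46 was 0.74. It was 0.90 for the 25 B-cell genes, 24 of them above 0, and −0.28 for the 14 genes of antibody-secreting cells. Of 25 tested B-cell genes 6 rose, among them the lymphocyte surface gene Ly6d (2.42 ± 0.47, adjusted p = 0.00811), the B-cell kinase Blk (1.32 ± 0.27, adjusted p = 0.0109) and Pax5, the transcription factor that sets B-cell identity (1.73 ± 0.37, adjusted p = 0.0128). Of 14 genes of antibody-secreting cells Trp53inp1 rose by 0.81 ± 0.14 (adjusted p = 0.00394), and 5 fell, with Creld2 at −2.37 ± 0.24 (adjusted p = 0.000400), Fkbp11 at −1.49 ± 0.27 (adjusted p = 0.00575), Edem2 at −0.64 ± 0.08 (adjusted p = 0.00114) and Txndc5 at −0.55 ± 0.09 (adjusted p = 0.00309) among them. All those named are expressed by hepatocytes too, so they do not stand for antibody-secreting cells alone. Of 10 V segments tested 3 passed upward, again with the filter favouring that direction. Igkv3-2 had 1 to 12 reads per library at 2 months and 25 to 41 at 12 months, a log2 difference of 2.71 ± 0.51, and Igkv5-39 had 0 to 4 and 16 to 47, a difference of 4.79 ± 0.99. Iglv1, the leading segment of this cohort by mean CPM, had 3 to 14 reads at 2 months and 4 to 53 at 12 months, so these ages overlapped. Leaving out the 2-month H pair or the 12-month H pair left no V segment called, and 2 or 3 genes of the list.

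Reads of stomach genes stood in 2 libraries of 12 months; these genes were looked up after their values were seen. Gkn1 had 256 reads in the WT library of 12 months H and 180 in the KO library of 12 months L, against 0 to 2 in the other 10 libraries of the cohort, and Gkn2 had 212 and 148 against 0. The other 12-month libraries, which had next to none, held Ighm at 81.1 CPM (WT, L) and 141.9 CPM (KO, H), as against 82.8 and 145.9 CPM in those with stomach reads. For Igkc the values were 24.7 and 47.2 CPM against 54.6 and 71.8 CPM, and for Jchain 6.02 and 8.75 CPM against 11.2 and 18.2 CPM. Vil1, a gene of gut epithelium, had 70 reads in the KO library of 6 months H and 48 in the KO library of 12 months L, against 0 to 13 in the others of the cohort. In the time course, the exocrine pancreas list summed to 16.6 CPM in the ZT17 library at 12 months and to at most 1.70 CPM in the others; that library had the lowest Ighm, Igkc and Jchain of its age. The part of these genes' tissues in the level of the members was not tested.

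By genotype label, Ighm was higher in the KO library in 6 of 6 pairs of the same age and time class, by 2.25 times at 2 months H, 1.65 times at 2 months L, 2.10 times at 6 months H, 3.42 times at 6 months L, 1.71 times at 12 months H and 1.80 times at 12 months L. The fitted log2 difference, KO minus WT, was 1.05 ± 0.12, and in the fits that left out 1 pair in turn it ran from 0.91 to 1.12. The pairs in which Egr1 did not follow the labels (2 months L and 12 months H) gave the lowest of the 6 ratios, 1.65 and 1.71. The 2-month H pair, where Egr1 differed little (1.97 CPM in KO and 2.55 CPM in WT), gave 2.25. The 12-month L pair, where Egr1 differed most, gave 1.80. A link between the Egr1 and the Ighm differences was not tested. With the pairs as a block 1 of 9 members, Ighm, passed, beside 0.64% of 14843 genes upward and 0.721% downward, and nothing is read from that count, since the members were chosen with values of these libraries known. Without the block, where the age difference enters the error, its log2 difference was 0.93 ± 0.70 and no member passed.

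The other members did not follow Ighm from pair to pair. Igkc was higher in KO in 4 of 6 pairs, with ratios from 0.217 to 3.72, and Jchain in 2 of 6, from 0.100 to 3.51. The H pair of 2 months was the lowest for both. Igha was higher in KO in 4 of 6 pairs, Ighg2c in 5, Ighg2b in 3, Iglc2 in 4, Cd79a in 4 and Cd79b in 3. Fitted log2 differences were 0.36 ± 0.42 for Igkc, −0.21 ± 0.55 for Jchain, 0.51 ± 0.47 for Igha, 1.21 ± 0.51 for Ighg2c, 0.79 ± 0.47 for Ighg2b, −0.17 ± 0.40 for Iglc2, 0.00 ± 0.22 for Cd79a and −0.15 ± 0.20 for Cd79b. The errors of Ighm and of Cd79a and Cd79b were thus smaller than those of the other antibody genes.

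**Figure D5:**
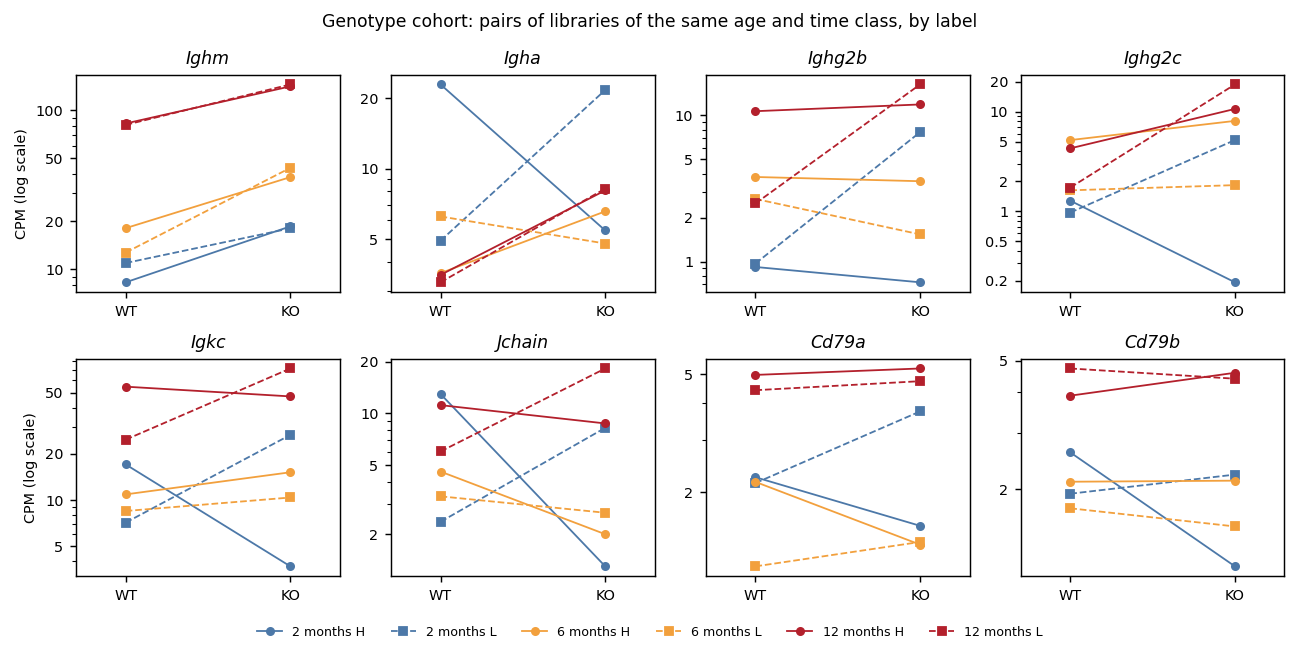
CPM on a log scale (y axis) of 8 members in the WT and the KO library of each pair (x axis), joined by a line; colour gives age and line style the time class, with H solid and L dashed. All 6 lines of Ighm rise from WT to KO, with ratios from 1.65 to 3.42, while the lines of the other genes cross.

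Of 48 genes of the wider B-lineage list tested between genotypes, Fkbp11 was the one that passed, beside 0.64% of all genes tested upward and 0.721% downward. It was lower in KO by a log2 difference of −0.58 ± 0.11 (edgeR, adjusted p = 0.0414), and hepatocytes express it too. None of 18 V segments passed (edgeR, 5 at an unadjusted p under 0.05, 0 with DESeq2), and V reads in sum were higher in KO in 5 of 6 pairs. Within 1 Mb of Ighm on chromosome 12, 28 other genes were tested and 0 passed between genotypes (edgeR), a count near the shares of all genes given above. The 21 of them outside the immunoglobulin genes had log2 differences between −0.29 and 0.53. That window was chosen after the value of Ighm was seen. With so few of all genes passing, 0 of 28 does not show that the region was alike under both labels. Hepatocyte markers summed to 69723 to 90365 CPM in WT and 39926 to 56280 CPM in KO, so these did not overlap between the labels, and MHC class II genes summed to 224 to 301 CPM in WT and 267 to 461 CPM in KO. The B-cell list summed to 6.24 to 20.9 CPM in WT and 7.03 to 20.8 CPM in KO. The part of these differences in the level of Ighm was not tested.

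Whether the genotype difference changed with age was tested on the assumption that the members were not chosen on this interaction; the rule does not say which contrast it used. For none of 9 members did the genotype by age terms pass (edgeR, adjusted p = 1 for each, 0 at an unadjusted p under 0.05, 0 with DESeq2), while 2 of all genes tested, 0.0135%, passed. With 2 pairs an age, this does not show that the difference was equal at all ages. The log2 ratios of Ighm at 2, 6 and 12 months were 1.17 and 0.73, 1.07 and 1.77, and 0.78 and 0.85 for H and L.

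Time of day was tested over the 18 libraries with 1 common 24-h curve. No member passed (edgeR, 2 at an unadjusted p under 0.05, 0 with DESeq2), against 15.8% of 13733 genes tested. The lowest adjusted p were 0.0939 for Igkc and 0.108 for Jchain, with fitted peaks at ZT 7.86 and 8.52, next to the time of the library that stood apart, and 0.214 and 0.694 without that library. Leaving out the ZT21 library at 6 months let 1 member pass. Within each age, an exact permutation test over the 720 orders of 6 time points gave 2 of 30 values under 0.05, both 0.0333, the smallest p the design allows (Cd79a at 12 months and Cd79b at 6 months), with an adjusted p of 0.5. Of 40 genes of the wider list tested 7 passed for the 24-h curve in edgeR, and 4 without the ZT9 library at 12 months.

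Across libraries the antibody genes varied together. Over the 18 libraries of the time course, Pearson's r of log2(CPM + 0.5) was 0.97 for Igkc and Jchain, 0.94 for Ighm and Igkc, 0.98 for Jchain and Ighg2c and 0.75 for Cd79a and Cd79b, with a median of 0.66 over 45 pairs of members. Without the ZT9 library at 12 months the first 4 were 0.95, 0.89, 0.95 and 0.71 and the median was 0.58. Over the 12 libraries of the genotype cohort the median was 0.65, with 0.88 for Cd79a and Cd79b, 0.87 for Igkc and Jchain, but 0.41 for Ighm and Jchain and −0.32 for Ighm and Igha. Points of 1 cohort share age groups, library preparation and depth, so these r are descriptions.

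The genes whose profile was most like the mean of the members differed between cohorts. In the genotype cohort the 10 most alike of 14811 genes, with r from 0.90 to 0.94 over 12 libraries, were Sept6, Cd27, Siglecg, Trim59, Gm14322, Slc25a24, Plcl2, Gpr132, Clec4n and Syk. Cd27, a receptor of activated lymphocytes, Siglecg, an inhibitory receptor of B cells, and Syk, the kinase that acts below Cd79a and Cd79b, are known in the lineage. In the time course the 10 most alike of 13933 genes, with r from 0.82 to 0.88 over 18 libraries, included Slc22a29, Tfam, Psma2, Mthfd2l, Mgst3, Eef1a1, Fuom, Nup62cl and Rab9, none of which is on the B-lineage list. Eef1a1, a translation factor, had median levels of 4581, 4023 and 5542 CPM at 2, 6 and 12 months, and Mgst3, a microsomal glutathione transferase, 8.25, 10.5 and 30.7 CPM.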

How the data were processed

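The authors trimmed poly(A) RNA-seq reads with fastp, aligned them to mm10 with HISAT2 and counted them per gene with featureCounts, as the study's methods and submitters' processing notes give it, and deposited raw counts in 2 tables, 1 for the 18 libraries of the time course and 1 for the 12 of the genotype cohort. Versions, the strand setting and the treatment of reads with several matches are not given in the sources used here. The latter affects immunoglobulin genes, which have close copies. The counts were used as deposited, and symbols, positions and exon lengths came from GENCODE M21 (GRCm38), which matched 53775 of 54429 and 55144 of 55471 rows. No pair of libraries held identical counts.

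The 10 members, the gene lists and the tests were chosen with earlier results of these data known. Tests used edgeR 4.0.16 (quasi-likelihood F-test, R 4.3.3) on genes passing filterByExpr, with TMM factors and Benjamini-Hochberg adjustment over all genes tested, and genes passed at an adjusted p under 0.05. The time course was fitted with age and ZT, ZT being a block of 6 levels. The genotype cohort was fitted with age, genotype and time class for age contrasts and with pair and genotype for KO minus WT. The 24-h rhythm used cosine and sine terms with age. p-values measure the spread between single libraries at different times or ages, since no condition had 2 libraries. The fits were tested on simulated counts. DESeq2 1.42.0, library totals without TMM, no filter, no block and leaving out each library or pair were the alternatives. Named were all members, Egr1, up to 8 B-lineage genes called per contrast with the smallest p, the 3 V segments of highest mean CPM per cohort, and the 10 genes most correlated with the members. Some genes that fall under this rule are not reported here. Log values used a pseudocount of 0.5 CPM. Printed sequences are from RefSeq (GRCm38.p6) and GENCODE M21. Figures were drawn with matplotlib 3.10.9.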

Additional observations from a re-analysis of the deposited data

Results flagged for a closer look

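Within each group of 6 libraries, the highest or lowest library of a member was compared with the rest by Dixon's test. Chance alone passes it in about 1 of 20 groups if values are independent and normal. The members vary together and were chosen on these libraries, so the count below is not set against that rate. Of 55 tests 16 passed, 8 of them for the ZT9 library at 12 months. There Ighm was 279.9 CPM (34.9 to 67.4 CPM in the other 5), Igkc 170.1 CPM (14.8 to 27.0 CPM), Jchain 66.8 CPM (4.68 to 8.32 CPM), Ighg2b 8.37 CPM (0.400 to 3.30 CPM), Ighg2c 10.1 CPM (0.913 to 1.90 CPM), Iglc2 4.59 CPM (0.856 to 1.69 CPM), Mzb1 4.59 CPM (0.424 to 1.14 CPM) and the V segments in sum 93.9 CPM (8.22 to 17.6 CPM).

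At 2 months Jchain at ZT9 (2.25 CPM), Ighg2c at ZT9 (0.0683 CPM, from 1 read, with 0 in the other 5) and Iglc2 at ZT21 (1.19 CPM) were apart, as was Igha at ZT5 of 6 months (4.01 CPM, 0.671 to 1.66 CPM in the others). In the genotype cohort, where a group spans 3 ages, the WT library of 12 months H was apart in Igkc (54.6 CPM) and Ighg2b (10.7 CPM), the WT library of 2 months H in Igha (22.9 CPM, 3.27 to 6.24 CPM in the other WT libraries), and the KO library of 2 months L in Igha (21.7 CPM, 4.78 to 8.21 CPM in the other KO libraries).

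Ighg2b was higher in the KO library of both pairs at 12 months, by a mean log2 ratio of 1.43, and lower in both at 6 months, by −0.45, a difference of 1.88. That opposite direction was not tested on its own. The genotype by age test over all 3 ages did not pass for Ighg2b (edgeR, adjusted p = 1).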

How the results depend on the processing

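Of 840 alternative values of the members' log2 differences, 38 moved by more than 1 SE and 13 changed sign. All 13 were differences that did not pass, 4 for 6 minus 2 months (Iglc2 and Cd79b) and 9 for KO minus WT (Jchain, Iglc2, Cd79a and Cd79b), where Jchain was 0.33 and Iglc2 0.22 without the 2-month H pair. No sign changed for 12 minus 2 or 12 minus 6 months. Without the replicate block (ZT, pair or age), genes called were 1059 for 6 minus 2 months (1892 with it), 997 for 12 minus 2 months (1626), 1418 for 12 minus 6 months (2252), 21 for KO minus WT (202) and 1101 for the rhythm (2167). Without the block, 0 B-lineage genes outside the members passed for 6 minus 2 months (3 with it), 5 for 12 minus 2 months (9), 0 for KO minus WT (1) and 2 for the rhythm (7), V segments were 1, 1, 6 and 0 for 12 minus 2 and 12 minus 6 months, the genotype cohort's 12 minus 2 months and the rhythm (2, 2, 3 and 1), and 0 members passed for KO minus WT (1).

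DESeq2 called 430 genes for KO minus WT and 9 for genotype by age (2 in edgeR), 5 B-lineage genes for 6 minus 2 months, 6 V segments for 12 minus 2 months of the genotype cohort and 0 for the rhythm. With library totals alone, which moved the median log2 difference of all genes from -0.01 to 0.11 for KO minus WT, 422 genes, 0 B-lineage genes and 1 V segment passed for KO minus WT (0 V segments with TMM) and 1 gene for genotype by age; the log2 difference of Ighm was 1.18. With no filter on low counts, 3 members and 8 B-lineage genes passed for 6 minus 2 months, 7 and 6 V segments for 12 minus 2 and 12 minus 6 months, 636 genes, 2 members and 2 B-lineage genes for KO minus WT, 100 genes and 2 B-lineage genes for genotype by age, and 3 V segments for the rhythm. The cause of these changes was not tested.

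With each library or pair left out in turn, genes called ran from 1249 to 1943 for 6 minus 2 months, 1088 to 2009 for 12 minus 2 months, 1496 to 2456 for 12 minus 6 months, 149 to 1988 for 12 minus 2 months of the genotype cohort (149 without the 2-month H pair, 189 without the 12-month H pair and 870 without the 2-month L pair), 45 to 137 for KO minus WT, 0 to 6 for genotype by age and 1764 to 2472 for the rhythm. Members called ran from 1 to 3 for 6 minus 2 months (3 without ZT9 of 6 months), 1 to 4 for the genotype cohort's 12 minus 2 months and 0 to 1 for the rhythm. B-lineage genes ran from 0 to 4 for 6 minus 2 months, 2 to 10 for 12 minus 2 months (2 without ZT13 of 2 months), 5 to 11 for 12 minus 6 months, 2 to 15 for the genotype cohort, 0 to 1 for KO minus WT and 4 to 9 for the rhythm. V segments ran from 0 to 1 for 6 minus 2 months, 3 to 5 for 12 minus 2 months and for 12 minus 6 months (2 with all libraries), 0 to 5 for the genotype cohort and 0 to 1 for the rhythm. With at least 10 reads required, the mean number of V segments was 0.333, 0 and 6.83 at 2, 6 and 12 months. At these depths a gene with a few reads per library, such as Mzb1 or Ighg2c in young liver, has a level known only within wide counting error.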
